A study of Homo sapiens with 4 samples.

Results

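The feedback genes of the MAP kinase pathway were examined in the human glioma line GBM8401 as 10 genes chosen by name. They are the MAP kinase phosphatase genes DUSP1, DUSP4, DUSP5, DUSP6 and DUSP10, the Sprouty genes SPRY1, SPRY2 and SPRY4, and the Sprouty-related genes SPRED1 and SPRED2. All 10 were found among the 58219 gene IDs of the deposited table, and all 10 passed the filter on low values, as did 16132 genes in all. The tested cells were temozolomide-resistant (TMZ-resistant) GBM8401 cells, a line raised from GBM8401 in medium with 200 µM TMZ over 140 days, with 2 libraries. They were set against parental GBM8401 cells, also with 2 libraries. TMZ is an alkylating drug used against glioblastoma, and whether the drug was still present at harvest is not given in the labels. The labels call the replicates biological, but both resistant libraries come from the same derived line, so a p-value here measures the spread between cultures and not between independently derived resistant lines. The values are the authors' scaled fragment numbers per gene, called scaled fragments below.

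Growth factor receptors signal through RAS, RAF and MEK to the ERK kinases. ERK in turn raises the transcription of genes that switch the cascade off, so their mRNA levels are widely read as a trace of pathway activity. MAP kinase phosphatases of the DUSP family remove the activating phosphates from ERK, JNK and p38, each with its own preference and place in the cell. Sprouty proteins hold back receptor signals on the way to RAS and RAF, and SPRED proteins bring the RAS inhibitor neurofibromin to the membrane. In glioma, receptor and RAS pathway lesions are common, and these brakes are among the genes that respond to them.

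The brakes did not move together in resistant cells. DUSP5, DUSP6, SPRY2 and SPRY4 were higher than in parental cells, by 1.37-fold to 2.21-fold. DUSP1 and DUSP4 were lower, by 2.49-fold and 1.94-fold. DUSP10, SPRY1, SPRED1 and SPRED2 did not pass the test. A gene was called changed at an adjusted p under 0.05 in limma, a linear model fitted to log2(value + 1) of all genes tested, with Benjamini-Hochberg adjustment over all of them. By that rule 4 members were higher, where 16.2% of all genes tested were, and 2 were lower, where 20.9% were. In either direction 6 of 10 were called, beside 37.1% of all genes. The median log2 fold change of the 10 members was −0.15, and that of all genes tested was −0.018. In 9 of 10 members the resistant libraries lay wholly above or below the parental ones, which was so for 68.6% of all genes tested. Called members with a change of at least 1.5-fold numbered 5 of 10, beside 19.0% of all genes, and 2 of 10, DUSP1 and DUSP5, changed at least 2-fold, beside 8.41%. Fold changes on the log2(value + 1) scale understate the change of low genes. With 2 libraries a group an exact two-sided permutation test of a single gene cannot give a p below 0.333.

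**Figure D1:**
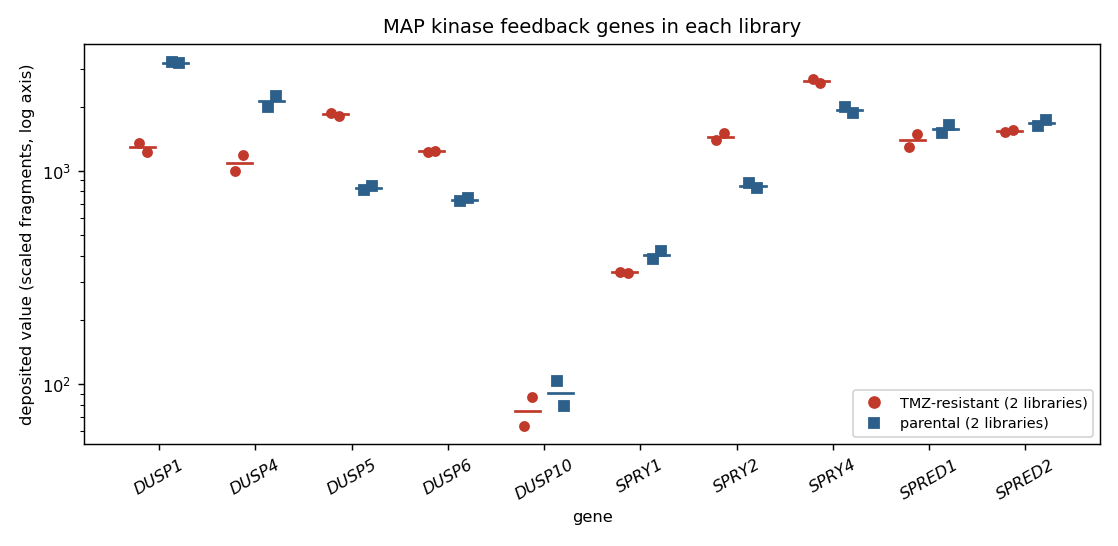
Deposited values (scaled fragments, log axis) of the 10 feedback genes in each library, with TMZ-resistant libraries as red circles left of the parental libraries as blue squares, and a bar at each group mean. DUSP5, DUSP6, SPRY2 and SPRY4 sit higher in both resistant libraries, DUSP1 and DUSP4 sit lower, and the groups overlap only for DUSP10.

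Deposited totals ran from 23163310 to 24225039 scaled fragments in the resistant libraries and from 24791254 to 25832511 in the parental ones. Markers of glial identity were uneven. VIM, NES and CD44 were abundant, with VIM at 47407 and 54488 scaled fragments in resistant and 74280 and 81177 in parental libraries, while the astrocyte genes GFAP, S100B and AQP4 stayed under 10 in every library. Of the 13 glial markers 9 could be tested, of which 2 rose and 4 fell, where 16.2% of all genes tested rose and 20.9% fell. Genes that mark other cell types were detected too. The 8 fibroblast markers summed to 12620 and 10450 in resistant and 14220 and 10850 in parental libraries, with 7 of them higher in replicate 1 than in replicate 2 of both groups, and THY1 fell. The 8 epithelial markers summed to 35530 and 37160 in resistant and 19020 and 20800 in parental libraries, where KRT8 and KRT18 rose. The 8 hematopoietic markers summed to 1175 and 1187 in resistant and 815.5 and 718.4 in parental libraries, where CD68 rose. The 7 endothelial markers summed to 1008 and 893.4 in resistant and 1435 and 1638 in parental libraries, where CDH5, TIE1 and TEK fell, and the 6 neuron markers to 262.1 and 304.9 in resistant and 153.7 and 167.3 in parental libraries, where RBFOX3 rose. Of these 5 lists 8 fibroblast, 8 epithelial, 6 hematopoietic, 6 endothelial and 4 neuron markers could be tested. The genes named as risen or fallen were the only ones called. No marker of these 5 lists was at 0 in all 4 libraries. Their part in the results below was not tested. In bulk RNA, a smaller share of cells of a kind and less RNA per cell cannot be told apart.

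The nuclear phosphatases induced by signalling split in opposite directions. DUSP1 (also known as MKP-1) is an immediate early gene whose protein acts on p38, JNK and ERK in the nucleus. DUSP1 (ENSG00000120129, chromosome 5, 172768090 to 172771195, minus strand) had 1351 and 1230 scaled fragments in resistant libraries, against 3231 and 3196 in parental libraries. Both resistant libraries lay well below both parental ones. The means were 1290.3 ± 85.7 in resistant and 3214 ± 24.7 in parental cells (SD, n = 2 each), a log2 fold change of −1.32 ± 0.08 (SE; limma adjusted p = 4.77e-05), and DUSP1 thus fell 2.49-fold.

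DUSP4 (MKP-2), a nuclear phosphatase for ERK and JNK, moved the same way. It had 1000 and 1184 scaled fragments in resistant libraries, against 1998 and 2232 in parental libraries. The groups did not overlap, and the libraries of each group differed more among themselves than those of DUSP1 did in parental cells. The log2 fold change was −0.96 ± 0.11 (SE; limma adjusted p = 4.3e-04).

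DUSP5 is a nuclear phosphatase with a strict preference for ERK, which it also holds in the nucleus. DUSP5 (ENSG00000138166, chromosome 10, 110497838 to 110511544, plus strand) had 1871 and 1815 scaled fragments in resistant libraries, against 813 and 851 in parental libraries. Resistant cells carried the higher values in both libraries, with a narrow spread in each group. DUSP5 rose 2.21-fold, with means of 1843 ± 39.9 in resistant and 832 ± 26.5 in parental cells (SD, n = 2 each) and a log2 fold change of 1.15 ± 0.08 (SE; limma adjusted p = 8.99e-05). It was the largest rise among the 10 members.

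The cytoplasmic ERK phosphatases diverged as well. DUSP6 (MKP-3), the best known feedback phosphatase for ERK downstream of growth factor receptors, lies on chromosome 12 (ENSG00000139318, 89347232 to 89353271, minus strand). It had 1226 and 1237 scaled fragments in resistant libraries, against 717 and 746 in parental libraries. The groups stood apart, and DUSP6 rose 1.68-fold, with means of 1232 ± 8.1 in resistant and 732 ± 20 in parental cells (SD, n = 2 each; log2 fold change 0.75 ± 0.09, SE; limma adjusted p = 5.17e-04). DUSP7, its close relative, which is not among the 10 members, had 836 and 989 scaled fragments in resistant libraries, against 2300 and 2231 in parental libraries. DUSP7 fell 2.49-fold (log2 fold change −1.32 ± 0.10, SE; limma adjusted p = 9.91e-05). The ratio of DUSP6 to DUSP7 per length was 1.79 and 1.53 in resistant libraries and 0.38 and 0.408 in parental libraries. As a ratio within a library, it does not depend on how the libraries were scaled to each other, and this pair was chosen after the values were seen.

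DUSP10 (MKP-5) prefers p38 and JNK over ERK. It was the lowest of the members, with 63.3 and 86.6 scaled fragments in resistant libraries and 103 and 78.4 in parental libraries. The ranges overlapped, and the log2 fold change of −0.28 ± 0.25 (SE) did not pass the test (limma adjusted p = 0.42). It ran between −0.05 without resistant replicate 1 and −0.50 without resistant replicate 2. DUSP16, another phosphatase for JNK and p38, was listed at 0 in every library. An exact 0 in this table can be a failed estimate, since RPS18, a ribosomal protein gene that cells use throughout, was also listed at 0 in every library.

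Of the Sprouty genes, SPRY2 and SPRY4 rose and SPRY1 did not pass the test. SPRY2 (ENSG00000136158, chromosome 13, 80335976 to 80340951, minus strand), an inhibitor of receptor signals to RAS, had 1391 and 1496 scaled fragments in resistant libraries, against 872 and 829 in parental libraries. Both resistant libraries lay above both parental ones. SPRY2 rose 1.70-fold, with means of 1444 ± 74.6 in resistant and 850 ± 30.5 in parental cells (SD, n = 2 each; log2 fold change 0.76 ± 0.09, SE; limma adjusted p = 5.23e-04).

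SPRY4 (ENSG00000187678, chromosome 5, 142310427 to 142326455, minus strand), which also blocks receptor-driven activation of the cascade, had 2691 and 2572 scaled fragments in resistant libraries, against 1995 and 1859 in parental libraries. Both resistant libraries again lay above both parental ones. SPRY4 rose 1.37-fold (log2 fold change 0.45 ± 0.08, SE; limma adjusted p = 3.36e-03). SPRY1, a family member known for restraining receptor signals in development, had 337 and 333 scaled fragments in resistant libraries, against 386 and 419 in parental libraries. Both resistant libraries were lower, yet the log2 fold change of −0.26 ± 0.12 (SE) did not pass (limma adjusted p = 0.116).

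The SPRED genes differed little. SPRED1, which is mutated in Legius syndrome, had 1288 and 1490 scaled fragments in resistant libraries, against 1505 and 1644 in parental libraries. SPRED2, a related RAS pathway inhibitor, had 1517 and 1559 scaled fragments in resistant libraries, against 1621 and 1734 in parental libraries. In both genes the highest resistant library lay just below the lowest parental library. The log2 fold changes were −0.18 ± 0.10 and −0.12 ± 0.08 (SE; limma adjusted p = 0.19 and 0.277), and neither passed.

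**Figure D2:**
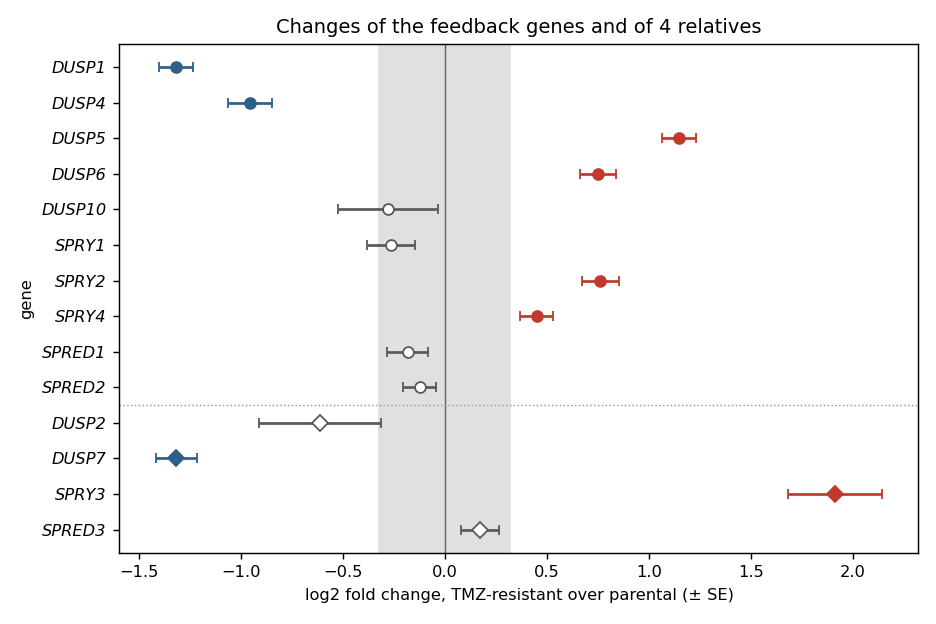
Log2 fold change (TMZ-resistant over parental, ± SE) of the 10 feedback genes (circles, above the dotted line) and of 4 relatives (diamonds, below it), filled red where called higher, filled blue where called lower and open where not called. The grey band holds the middle of all genes tested, from −0.324 to 0.317 (lower to upper quartile), and the 6 called members lie outside it while the other 4 lie within it.

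The remaining genes of these families ranged from very low values to levels like those of the members. Of the 7 other typical MAP kinase phosphatase, Sprouty and SPRED genes 4 could be tested, of which DUSP7 fell and SPRY3 rose. SPRY3 had 123 and 110 scaled fragments in resistant libraries, against 31.7 and 28.7 in parental libraries, a log2 fold change of 1.91 ± 0.23 (SE; limma adjusted p = 5.56e-04). It lies in the pseudoautosomal region shared by the X and Y chromosomes, so how its fragments were assigned between the copies is uncertain. DUSP2, a nuclear phosphatase best known from immune cells, had 23.3 and 20.4 scaled fragments in resistant and 33.4 and 34.4 in parental libraries (log2 fold change −0.61 ± 0.30, SE; limma adjusted p = 0.143). SPRED3 had 1070 and 1017 scaled fragments in resistant and 967 and 884 in parental libraries (0.17 ± 0.09, SE; limma adjusted p = 0.186). DUSP8 and DUSP9 stayed under 2 scaled fragments in every library.

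Divided by the length of all annotated exons of a gene, the levels of the members changed order between the groups. In resistant cells DUSP5 came first, with a mean of 704.8 scaled fragments per kb, ahead of DUSP1 at 639, SPRY2 at 475 and SPRY4 at 401. In parental cells DUSP1 came first at 1592, well ahead of SPRED2 at 325.5, DUSP5 at 318, SPRY4 at 293.5, DUSP4 at 291.5 and SPRY2 at 280.0. In parental cells the libraries of SPRED2 and DUSP5 overlapped, as did those of SPRY4 and DUSP4 and of DUSP4 and SPRY2, so these neighbours in the order did not differ beyond their spread. In resistant cells only SPRED1, at 168 per kb, and DUSP4, at 150.5, overlapped among neighbours. SPRY1 and DUSP10 were the lowest in both groups, with DUSP10 at 25.7 per kb in resistant and 31.2 in parental cells. The ratio of DUSP5 to DUSP1 per length was 1.07 and 1.14 in resistant libraries and 0.194 and 0.206 in parental libraries, a pair chosen after the values were seen. Exons of all annotated transcripts were merged, so the level of a gene with long unused exons is understated, and the ratios carry that error in both groups alike.

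**Figure D3:**
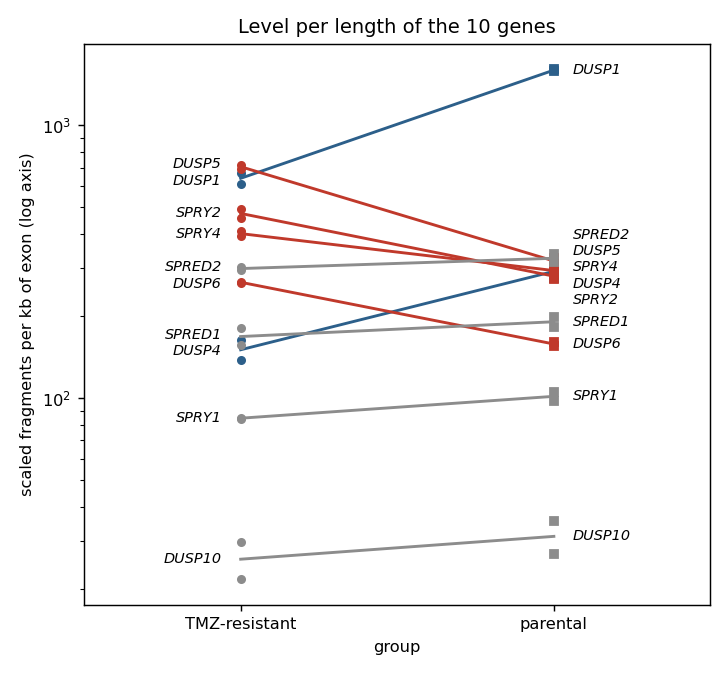
Scaled fragments per kb of exon (log axis) of the 10 feedback genes in TMZ-resistant cells (circles, left) and parental cells (squares, right), with points for the 2 libraries of a group and a line joining the group means. Red lines are genes called higher in resistant cells, blue lines genes called lower and grey lines genes not called. DUSP5 is at the top in resistant cells with 704.8 and DUSP1 at the top in parental cells with 1592.

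Promoter sequences were read for 8 of 10 members, the table holding none for DUSP4 and DUSP5. The 4 shown belong to changed members: DUSP1, which fell, and DUSP6, SPRY2 and SPRY4, which rose. For SPRY2 the table holds 3 windows, of which the one farthest upstream is shown. Each is a RefSeq window (GRCh38.p14) from 250 bases before to 50 bases after a gene start, all on the minus strand and written 5′ to 3′ along the gene, at chr5:172771146-172771445, chr12:89352452-89352751, chr13:80341077-80341376 and chr5:142324198-142324497. Capitals mark TGACG or its reverse complement CGTCA, the core of the cAMP response element (CRE), which stands in DUSP1, SPRY2 and SPRY4 and not in DUSP6, nor in the other 2 SPRY2 windows.
DUSP1: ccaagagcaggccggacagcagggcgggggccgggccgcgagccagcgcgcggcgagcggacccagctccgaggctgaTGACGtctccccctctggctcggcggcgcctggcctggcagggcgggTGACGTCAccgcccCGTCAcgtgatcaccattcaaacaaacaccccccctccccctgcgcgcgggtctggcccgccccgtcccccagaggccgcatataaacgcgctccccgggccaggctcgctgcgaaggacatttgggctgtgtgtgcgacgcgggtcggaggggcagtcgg
DUSP6: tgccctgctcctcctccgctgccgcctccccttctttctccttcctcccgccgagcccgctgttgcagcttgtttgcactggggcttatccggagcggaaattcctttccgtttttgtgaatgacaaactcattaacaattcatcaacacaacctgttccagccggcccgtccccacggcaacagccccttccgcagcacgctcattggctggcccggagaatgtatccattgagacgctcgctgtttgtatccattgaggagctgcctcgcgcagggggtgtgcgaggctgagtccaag
SPRY2: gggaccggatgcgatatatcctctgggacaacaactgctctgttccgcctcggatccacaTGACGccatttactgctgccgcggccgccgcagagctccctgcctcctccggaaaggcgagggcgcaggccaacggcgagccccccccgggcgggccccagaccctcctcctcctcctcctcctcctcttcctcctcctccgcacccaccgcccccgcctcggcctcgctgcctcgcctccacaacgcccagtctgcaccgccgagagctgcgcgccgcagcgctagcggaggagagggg
SPRY4: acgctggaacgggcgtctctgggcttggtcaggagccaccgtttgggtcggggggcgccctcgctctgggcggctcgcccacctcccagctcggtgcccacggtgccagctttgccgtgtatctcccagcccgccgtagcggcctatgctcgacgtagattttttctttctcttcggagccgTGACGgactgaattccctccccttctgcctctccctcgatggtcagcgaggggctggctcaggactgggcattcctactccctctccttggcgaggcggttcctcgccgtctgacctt

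The full CRE palindrome TGACGTCA, which CREB and ATF factors bind, was present in DUSP1, at 125 bases before its start, and in none of the other 7 members with a promoter, while 2.24% of 21001 promoter windows of coding genes hold it. Its core TGACG, contained in the palindrome, was present in 5 of 8 members (DUSP1, DUSP10, SPRY2, SPRY4 and SPRED2) beside 28.0% of all windows. The EGR motif GCGGGGGCG was present in 2 of 8 (SPRY1 and SPRY2) beside 6.59%, the ETS motif CCGGAA in the same 2 beside 21.3%, and the AP-1 motif TGANTCA in 1 of 8 (SPRED2) beside 6.21%. The TATA box letters TATAAA were in 2 of 8 (DUSP1 and SPRED2) beside 9.25%. The CArG box bound by SRF was in 0 of 8, and 1.26% of all windows hold it. Every motif was searched on both strands. Genes with several annotated starts had several windows and so more chances of a match. A match is only a run of letters in these windows, and binding was not measured here.

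Several coding genes around DUSP5 rose too. Neighbours were tested coding genes whose lowest coordinate lay within 2 Mb of that of the member, whatever the strand. Of 14 around DUSP5, 8 rose and 0 fell in limma (1 lower at an unadjusted p under 0.05). Of all genes tested 16.2% rose and 20.9% fell. The 14 neighbours had a median log2 fold change of 0.40 and a highest value of 1.13 for MXI1, beside 1.15 for DUSP5 itself. MXI1, named after its values were seen, encodes an antagonist of MYC. The risers included SHOC2, a scaffold of RAF activation. The part of the neighbourhood in the rise of DUSP5 was not tested. For DUSP6 0 of 10 neighbours rose, also at an unadjusted p under 0.05, and 2 fell (median −0.07), for DUSP1 4 of 17 rose and 4 fell (−0.18), for DUSP4 4 of 23 rose and 6 fell (−0.15) and for SPRY4 14 of 56 rose and 6 fell (0.13). The neighbours of SPRY4 included clustered protocadherin genes, such as PCDHGA8 and PCDHGB7, both among the risers and among the genes not called. SPRY2 had 3 tested neighbours, of which 2 rose (median 0.36). Of annotated genes that overlap a member on the other strand, the antisense gene SPRY4-AS1 was assigned at most 5.27 scaled fragments in a library and a noncoding gene opposite DUSP6 at most 7.65. The strand setting of the counting is not given, so antisense fragments counted within SPRY4 or DUSP6 cannot be told apart.

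**Figure D4:**
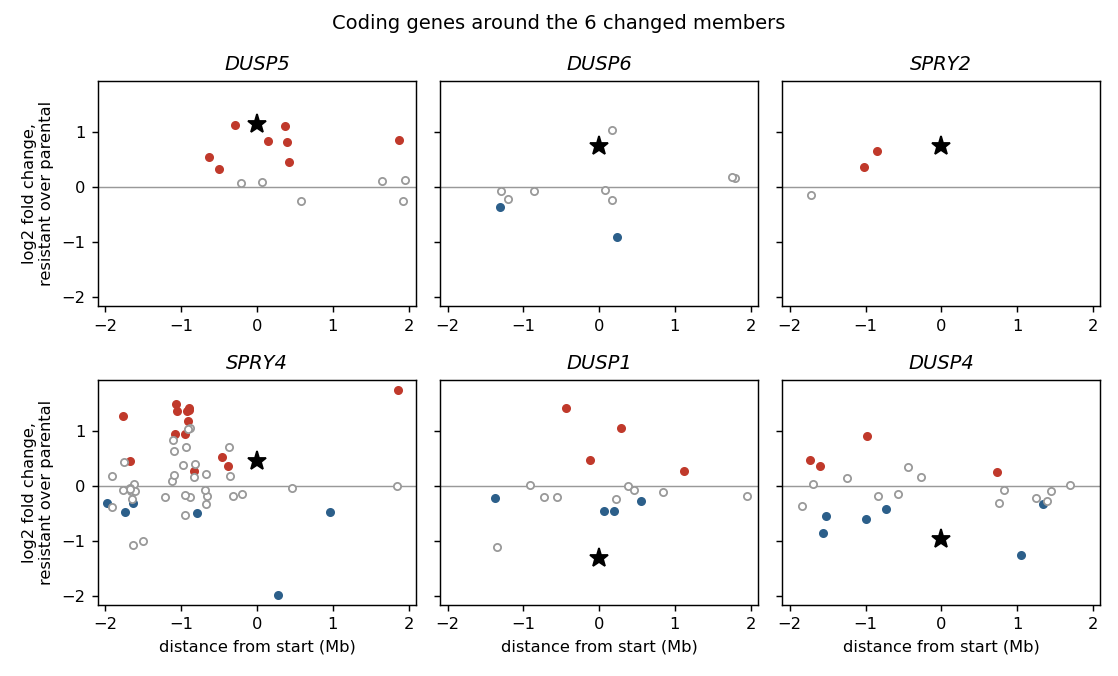
Log2 fold change (TMZ-resistant over parental) of tested coding genes around each of the 6 changed members, whose own value is the black star at 0. The distance in Mb, labelled as from the start, is between lowest coordinates, whatever the strand. Red points were called higher, blue points lower and open points not called. Around DUSP5, 8 of 14 points are red and 0 are blue, while the other panels with more than 3 points show both called lower and not called genes.

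Upstream, the genes of the ERK cascade itself were measured to place the brakes in their pathway. Of 26 genes from receptor adaptors to ERK and its kinase targets 25 could be tested, with a median log2 fold change of −0.20. Of these 5 rose and 12 fell, where 16.2% of all genes tested rose and 20.9% fell. With scaling to library size 7 rose and 8 fell, where 3675 of 16149 genes tested rose and 2775 fell. The balance thus depended on scaling, in the list and in all genes alike. When any single library was left out fewer genes of the list fell, and fewer of all genes did too. The list's count was smallest without resistant replicate 1. MAPK3 (ERK1) had 1448 and 1483 scaled fragments in resistant and 1428 and 1366 in parental libraries (log2 fold change 0.07 ± 0.08, SE; adjusted p = 0.56 in limma). Of the MEK genes, MAP2K1 fell 1.38-fold while MAP2K2 had a log2 fold change of 0.10 ± 0.08 (SE) that did not pass. KSR1, a scaffold that brings RAF, MEK and ERK together, rose 2.37-fold, and the adaptor gene SHC1, which overlaps PYGO2 on the same strand, rose 1.49-fold. BRAF rose 1.33-fold and SHOC2 1.38-fold, whereas the RAS genes MRAS and NRAS fell 1.52-fold and 1.37-fold. HRAS, named after its values were seen, had 38.4 and 35.7 scaled fragments in resistant libraries against 123 and 74.6 in parental libraries and fell 2.54-fold.

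Among other inhibitors of receptors and RAS 3 of 19 genes rose and 2 fell, where 16.2% of all genes tested rose and 20.9% fell, with a median of 0.04. When any single library was left out fewer of them rose, and without either parental replicate more fell, in fits with fewer samples. GRB10, an adaptor that restrains insulin and growth factor receptors, rose 2.43-fold, and the ubiquitin ligase gene CBLB rose by a log2 fold change of 0.58 ± 0.18 (SE; limma adjusted p = 0.0321). RASSF1, a RAS effector and tumour suppressor, fell 1.55-fold, and PPP2CA, a catalytic subunit of the phosphatase PP2A, fell 1.41-fold.

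In the JNK and p38 cascades, on which DUSP1, DUSP4 and DUSP10 also act, 8 of 18 genes fell and 0 rose in limma (0 also at an unadjusted p under 0.05), where 20.9% of all genes tested fell and 16.2% rose, with a median of −0.26. With scaling to library size 7 fell, and without parental replicate 1 there was 1 that rose. Under library-size scaling 2775 of 16149 genes tested fell. When any single library was left out fewer genes of the list fell, and fewer of all genes did too. The list's count was smallest without resistant replicate 1. MAP3K5 (ASK1), a stress-activated kinase, fell 2.01-fold, with 298 and 348 scaled fragments in resistant libraries against 641 and 658 in parental libraries (limma adjusted p = 5.55e-04). MAPKAPK3, a target of p38, fell 1.37-fold, MAP2K4, which activates JNK, 1.29-fold and MAP3K4 1.28-fold.

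Genes that commonly respond to ERK activity moved in both directions. Of 22 such genes 21 could be tested, with a median of 0.20. Of these 9 rose and 7 fell, where 16.2% of all genes tested rose and 20.9% fell. EGR1, an immediate early transcription factor, rose 8.82-fold, with 3517 and 3910 scaled fragments in resistant libraries against 448 and 393 in parental libraries (limma adjusted p = 3.94e-06), and the cytokine gene LIF rose 2.42-fold. FOSL1, which encodes the AP-1 subunit FRA1, fell 2.92-fold, with 1171 and 1265 scaled fragments in resistant libraries against 3716 and 3394 in parental libraries (limma adjusted p = 3.54e-05). JUN, another AP-1 subunit, fell 2.49-fold, the chromatin protein gene HMGA2 3.36-fold and the sphingosine kinase gene SPHK1 1.74-fold. The ETS factors ETV4 and ETV5, both used as reports of ERK output and named here after their values were seen, went apart: ETV4 fell 1.34-fold, while ETV5, which overlaps DGKG on the same strand, rose 1.27-fold.

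Among growth factors and their receptors 3 of 29 tested genes rose and 6 fell, where 16.2% of all genes tested rose and 20.9% fell. The median of the list was 0.06. With scaling to library size 7 rose and 5 fell, where 3675 of 16149 genes tested rose and 2775 fell. The receptor gene MET fell 2.31-fold, with 3151 and 3189 scaled fragments in resistant libraries against 7172 and 7460 in parental libraries (limma adjusted p = 3.79e-05). The growth factor gene FGF1 fell 3.93-fold. The platelet-derived growth factor genes PDGFA and PDGFB rose 1.78-fold and 2.64-fold, and TGFA, a ligand of the EGF receptor, rose 1.19-fold. EGFR, the receptor most often altered in glioblastoma and named here after its values were seen, had a log2 fold change of −0.01 ± 0.09 (SE) that did not pass.

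**Figure D5:**
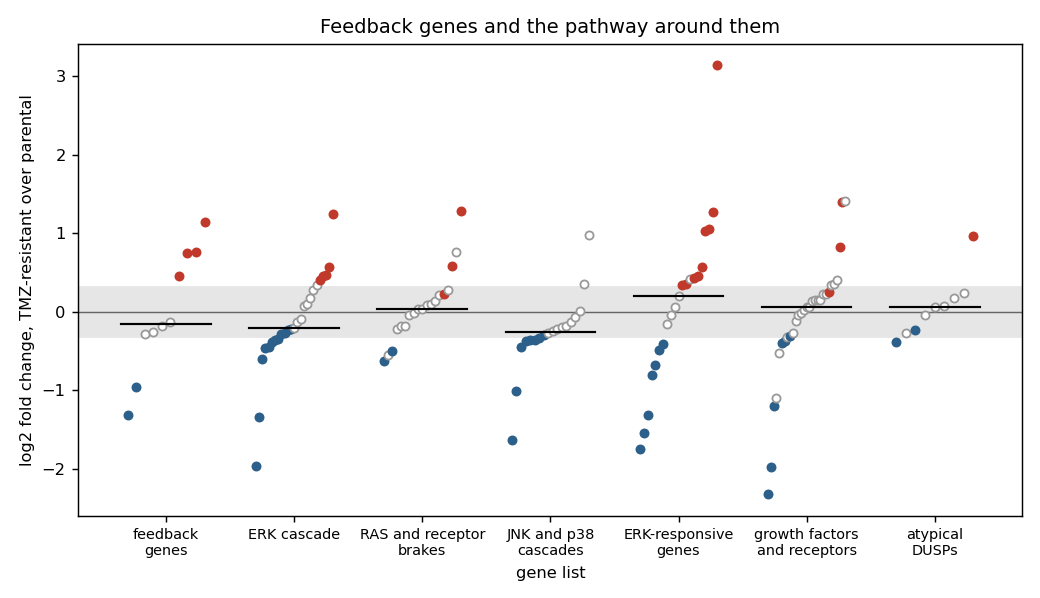
Log2 fold change (TMZ-resistant over parental) of each tested gene in the 10 feedback genes and in 6 lists of the pathway around them, with a black bar at each list's median. Filled red points were called higher, filled blue points lower and open points not called, and the grey band runs from −0.324 to 0.317, the quartiles of all genes tested. The JNK and p38 list shows 8 blue and 0 red points, while the feedback and ERK-responsive genes show both colours.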

How the data were processed

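Bulk RNA of GBM8401 cells was measured in 4 libraries, 2 TMZ-resistant and 2 parental. Per the labels' protocols, Trizol RNA went into a strand-specific kit. The submitters' processing notes name Cufflinks 2.2.1, Cuffdiff, HISAT2 2.1.0, SAMtools 1.2, Trimmomatic 0.36, bcl2fastq and build GRCh38.p10. Annotation and strand setting are not stated, so a gene and its antisense partner cannot be told apart. The authors deposited a signal that is never negative: fragments per gene times a factor per library (0.753 to 0.956), not divided by length. Genes at 10 or more in at least 2 libraries, with a sum of at least 15, entered limma 3.58.1 (under R 4.3.3) on log2(value + 1), with trended variance, robust moderation, group as the only term, two-sided tests and Benjamini-Hochberg adjustment. The scripts were tested on simulated data. Symbols, coordinates and exon lengths come from GENCODE 29 (GRCh38). Members and lists were chosen with earlier results of these data known. All members and typical family genes were named, and from each list up to 4 genes with the smallest adjusted p, up to 2 called genes running against most called genes, and the ERK and MEK genes, of which 1 is not reported here. Alternatives covered scaling, filter, pseudocount, variance model, replicate block and left-out libraries.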

Additional observations from a re-analysis of the deposited data

How the results depend on the processing

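The 6 called members kept their call and direction in each of the 14 alternative settings, as did DUSP7 and SPRY3. Over these settings the log2 fold change ran from −1.39 to −1.22 for DUSP1, from −1.08 to −0.83 for DUSP4, from 1.11 to 1.24 for DUSP5, from 0.72 to 0.85 for DUSP6, from 0.71 to 0.86 for SPRY2 and from 0.40 to 0.55 for SPRY4, whose adjusted p in limma was at most 0.0298. DUSP10 and SPRED2 passed in 0 settings. With the replicate block SPRY1 and SPRED1 passed as lower (log2 fold changes −0.26 and −0.18, limma adjusted p = 0.0385 and 0.028), so that 4 members were called lower, and 8624 of all genes were called in place of 5991. Under the block the JNK and p38 list held 1 higher and 13 lower genes, the receptor and RAS inhibitors 3 and 6, and the growth factors and receptors 7 and 8. The labels tie no replicate number to a shared culture or day. Deviations of equal numbers correlated at 0.265 across genes, a hint from the data and not the design. Over the other 7 lists together 22 genes were called higher and 38 lower, where 16.2% of all genes tested were higher and 20.9% lower. Tested genes numbered 4 other typical family genes, 9 atypical DUSPs, 25 of the ERK cascade and 19 receptor and RAS inhibitors. The JNK and p38 list had 18, the ERK-responsive genes 21 and the growth factors and receptors 29. Without single libraries the lower count ran from 21 (without resistant replicate 1) to 33, where fewer samples entered the fit. All genes called numbered 3593 without resistant replicate 1 and 3842 without resistant replicate 2. The share of called genes that were higher was 43.7% as deposited and 57.0% when libraries were scaled to equal size.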

Other observations

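While single members moved in opposite directions, the deposited values of the 10 feedback genes summed to 12740 and 13000 scaled fragments in resistant libraries and to 13240 and 13590 in parental libraries. Per kb of exon they summed to 3212 and 3214 in resistant and 3562 and 3601 in parental libraries. As deposited, both resistant libraries were lower on either scale. Library-size factors were 0.9461 and 0.9894 in resistant and 1.013 and 1.055 in parental libraries. The order of the 10-gene sums not divided by length thus depended on scaling. The 5 phosphatase genes summed to 5511 and 5553 in resistant and 6863 and 7104 in parental libraries. The 5 Sprouty and SPRED genes summed to 7225 and 7451 in resistant and 6379 and 6484 in parental libraries. Sums not divided by length give longer genes more weight. All of them were formed after the values were seen.

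The atypical DUSP genes, which encode small phosphatases without the MAP kinase binding domain of the typical family, mostly did not pass the test. Of 13 listed genes 9 could be tested, of which 1 rose, 2 fell and 6 were not called. This was near the shares of all genes tested, of which 16.2% rose and 20.9% fell. The median log2 fold change was 0.06. DUSP19 rose 1.95-fold, with 92.6 and 84.9 scaled fragments in resistant libraries against 35.8 and 56.4 in parental libraries. DUSP12 fell 1.31-fold and DUSP3 1.18-fold, and DUSP23 had a log2 fold change of −0.27 ± 0.12 (SE) that did not pass. Without resistant replicate 1, and likewise without resistant replicate 2, 0 of these genes were called in either direction by limma. Without parental replicate 1 the counts were 0 higher and 1 lower, without parental replicate 2 they were 1 and 0, and with scaling to library size 1 and 1. In the chromosomal neighbourhood of SPRY4, which rose, FGF1 fell by 1.97 on the log2 scale. It had the lowest value of the 56 tested coding neighbours, of which 14 rose and 6 fell. The lowest coordinates of the 2 genes lie 0.28 Mb apart.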
